A study of Mus musculus with 12 samples.

Results

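RNA levels of 8 MAP kinase phosphatases (Dusp1, Dusp2, Dusp4, Dusp5, Dusp6, Dusp7, Dusp10 and Dusp16) were followed in cultured mouse Tregs, in 12 libraries of bulk RNA. The genes were chosen by name as phosphatases that act on MAP kinases, not by a rule on their values. Earlier results of these data were known when they were chosen. They are 8 of the 55228 gene symbols in the deposited table, and all 8 were among the 15043 genes that were tested because their TPM averaged at least 1. TPM (transcript counts scaled to a common library total) are already divided by transcript length, so levels of different genes can be compared within a library. Sequencing depth cannot be read from TPM and is unknown here, and errors are the spread among the 3 replicates of each group.

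MAP kinases are switched on when a threonine and a tyrosine in their activation loop are both phosphorylated, and these phosphatases remove both phosphates. Most of the genes are themselves induced by MAP kinase activity, so they are widely used as a record of feedback on the pathway. Dusp1, Dusp2, Dusp4 and Dusp5 encode inducible nuclear enzymes, Dusp6 and Dusp7 encode cytoplasmic enzymes with a preference for ERK, and Dusp10 and Dusp16 encode enzymes with a preference for p38 and JNK. The IL-2 receptor signals mainly through JAK and STAT5, and also through the adaptor Shc to Ras and ERK.

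There were 4 groups of 3 libraries. EV Tregs carried the empty MSCV retroviral vector, which expresses the surface reporter Thy1.1 behind an IRES, and were split into a culture deprived of IL-2 (EV no IL-2) and one left in recombinant mouse IL-2 (EV+IL-2). The tether groups, 1G12t and 3A10t, had the same vector with an orthoIL-2 variant (1G12 or 3A10) tied by a linker to orthoIL-2Rβ, and their cultures were also deprived of IL-2. All cells came from 1 pool of lymph nodes of 16 NOD.Foxp3-GFP mice. The CD4+ cells of the pool were sorted as Foxp3.GFP+CD25+ in 3 parts on separate machines and activated in IL-2. They were transduced on day 2, washed on day 4 (except EV+IL-2) and sorted for Thy1.1 on day 9. The replicate number therefore marks a shared sort, and p-values measure the spread between cultures of 1 pool, not between animals. In bulk RNA, fewer cells with a transcript and less RNA per cell cannot be told apart.

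The labelled cell type was checked against its markers. The 6 Treg markers summed to between 1596 and 2242 scaled TPM in the 12 libraries, with Foxp3 between 369 and 510. The summed levels of B cell, myeloid, CD8 T cell and NK cell markers reached at most 16.6, 3.49, 6.51 and 0.913. The 4 erythroid markers (hemoglobin genes) summed to between 24.3 and 38.5 in EV+IL-2 and between 1.17 and 3.13 in the other groups. Both of the erythroid markers that were tested, Hba-a1 and Hba-a2, were higher in EV+IL-2 (mean scaled TPM 18.2 and 12.4) than in EV no IL-2 (0.661 and 0.523). They made up most of the sum, and the list did not move together. Hbb-bt averaged 1.59 in EV+IL-2 and 0.296 in EV no IL-2, whereas Hbb-bs did not rise (0.155 and 0.197). The part of the erythroid markers in the results below was not tested. Library factors for scaling lay between 0.854 and 1.09, and between 30393 and 43285 symbols per library were above 0.

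The 8 phosphatases covered a wide range of levels. Over all 12 libraries the order of the mean scaled TPM was Dusp1 (289), Dusp2 (132), Dusp6 (55.8), Dusp5 (39.6), Dusp10 (22.1), Dusp4 (13.1), Dusp7 (9.35) and Dusp16 (1.71). Dusp1 stood above 96.3% of the genes tested and Dusp16 above 14.7%. In EV no IL-2 the ranges of Dusp1 and Dusp2 overlapped, as did those of Dusp6 and Dusp10, so those neighbours did not differ beyond the spread of the libraries. The ranges of Dusp5, Dusp4, Dusp7 and Dusp16 each stood clear of the others in that group. In EV+IL-2 the order of the means kept Dusp1, Dusp2 and Dusp6 at the top, with the range of Dusp6 inside that of Dusp2, and the ranges of Dusp4 and Dusp7 overlapped at the lower end. The summed level of all 8 genes was 439 ± 13.6 (SD, n = 3) in EV no IL-2 and 870 ± 77.1 (SD, n = 3) in EV+IL-2, while it ranged from 319 to 776 in 1G12t and from 353 to 528 in 3A10t. In EV no IL-2, Dusp1 made up 39.2% of the sum and Dusp6 5.68%. With soluble IL-2 the shares were 58.3% and 13.6%.

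**Figure D1:**
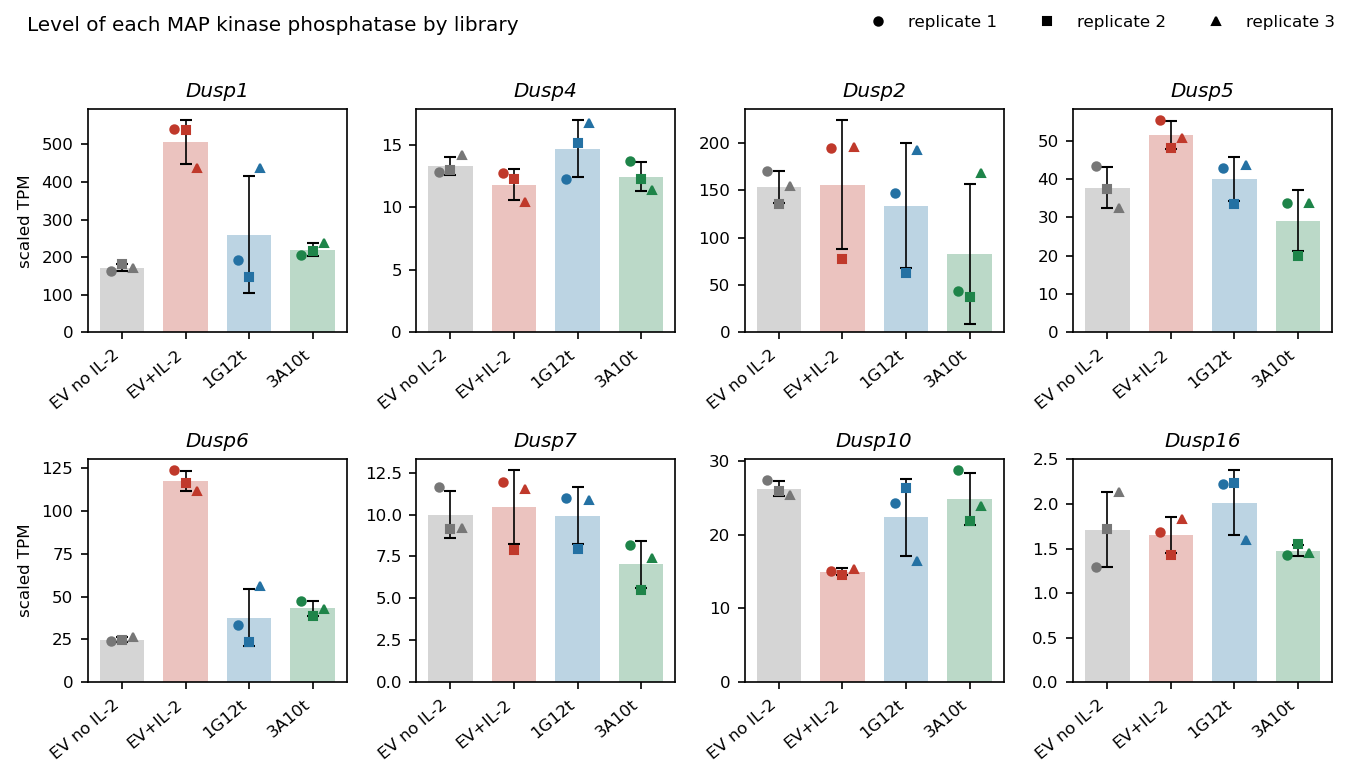
Scaled TPM of the 8 phosphatases in 12 libraries, with 1 panel per gene and its own linear axis from 0. Bars show the mean of 3 libraries, error bars the SD, and points the libraries, with a symbol for each replicate number. Dusp1 and Dusp6 were highest and Dusp10 lowest in EV+IL-2. The 1G12t bars of these 3 genes have the widest errors, with replicate 3 farthest from the mean.

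The response to soluble IL-2 was asked by EV+IL-2 against EV no IL-2. 3 of the 8 phosphatases differed between these groups, against 13.3% of all genes tested. Dusp6, which dephosphorylates ERK in the cytoplasm, was 4.72-fold higher in EV+IL-2, Dusp1, which acts on p38, JNK and ERK in the nucleus, was 2.94-fold higher, and Dusp10, which acts on p38 and JNK, was lower by a factor of 1.75. The other 5 genes did not pass the test.

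Dusp6 was at 23.9, 24.6 and 26.4 scaled TPM in EV no IL-2 and at 124, 117 and 112 in EV+IL-2 (replicates 1, 2 and 3). The lowest EV+IL-2 library was above every other library of the study. The log2 fold change was 2.19 (SE 0.23), with a limma adjusted p of 0.00013. Fold changes on the log2 scale are differences of log2(scaled TPM + 1), which understates changes at low levels, and a gene is called here where the Benjamini-Hochberg adjusted p over all genes tested was under 0.05.

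Dusp1 was at 164.3, 181.2 and 171.0 scaled TPM in EV no IL-2 and at 542.1, 537.5 and 437.5 in EV+IL-2. The groups were far apart, and replicate 3 was the lowest of the EV+IL-2 libraries. The log2 fold change was 1.54 (SE 0.30), with a limma adjusted p of 0.0064. Dusp1 overlaps Ergic1, a gene on the opposite strand, which was also higher in EV+IL-2 (log2 fold change 1.11). They share 11 of the 3311 exonic bases of Dusp1, and whether the counting used strand is not given in the sources used here.

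Dusp10 was at 27.4, 26.0 and 25.4 scaled TPM in EV no IL-2 and at 15.1, 14.5 and 15.4 in EV+IL-2. All 3 EV+IL-2 libraries were below every library of the other groups. The log2 fold change was −0.77 (SE 0.15), with a limma adjusted p of 0.0074.

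Of all 15043 genes tested, 2001 (13.3%) were called in this comparison, 1229 higher and 772 lower. The phosphatases had 2 higher and 1 lower, and the median log2 fold change over the 8 was 0.0092, against −0.014 over all genes tested. The median therefore gives no common shift of the 8 genes. The libraries of the groups did not overlap for 5 of the 8 phosphatases, namely Dusp1, Dusp5 and Dusp6 above and Dusp4 and Dusp10 below, against 39.6% of all genes tested. Dusp5, a nuclear phosphatase specific for ERK that is known as an IL-2-induced gene in T cells, was at 43.2, 37.4 and 32.5 scaled TPM in EV no IL-2 and at 55.3, 48.0 and 50.8 in EV+IL-2. The EV+IL-2 libraries were all above the EV no IL-2 libraries, but the log2 fold change of 0.44 (SE 0.19) did not pass the test (limma adjusted p of 0.17, and between 0.055 and 0.44 in the alternatives). Dusp4, a nuclear phosphatase of ERK and JNK, had a log2 fold change of −0.17, with a 95% interval from −0.43 to 0.10. The intervals of Dusp7 (−0.37 to 0.46) and Dusp16 (−0.39 to 0.34) spanned 0, and that of Dusp2 ran from −1.38 to 1.20, the widest of the 8.

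**Figure D2:**
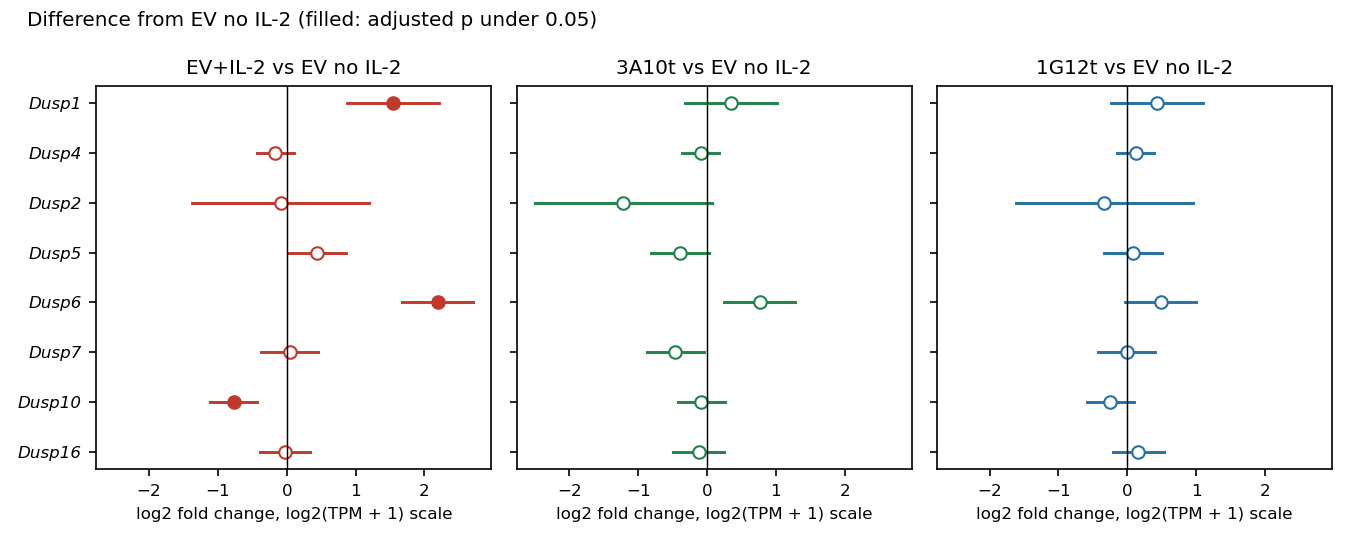
Log2 fold change of the 8 phosphatases against EV no IL-2, on the log2(scaled TPM + 1) scale, for EV+IL-2, 3A10t and 1G12t. Points are estimates, lines 95% intervals from the limma fit, and filled points mark an adjusted p under 0.05. Only the EV+IL-2 panel has filled points, for Dusp1, Dusp6 and Dusp10, while the 3A10t interval of Dusp6 lies above 0, from 0.25 to 1.28.

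The DNA just before the transcription start was compared for the members that the results turn on, the 3 genes called with soluble IL-2 and Dusp5. RefSeq (GRCm38.p6) gave a window of 250 bases before and 50 after the start for 7 of the 8 genes, Dusp4 being the other. The 250 bases before the start are printed 5′ to 3′ on the strand of the gene. Capitals mark a cAMP response element (CRE, TGACGTCA), an E-box (CACGTG) or a CArG box, the sequence bound by serum response factor.
Dusp1, chr17:26508473-26508722, minus strand: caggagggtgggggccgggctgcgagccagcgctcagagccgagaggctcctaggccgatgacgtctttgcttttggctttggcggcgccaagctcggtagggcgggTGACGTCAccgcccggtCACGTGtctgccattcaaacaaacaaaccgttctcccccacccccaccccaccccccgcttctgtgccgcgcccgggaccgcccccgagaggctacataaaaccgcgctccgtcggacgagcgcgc
Dusp5, chr19:53528895-53529144, plus strand: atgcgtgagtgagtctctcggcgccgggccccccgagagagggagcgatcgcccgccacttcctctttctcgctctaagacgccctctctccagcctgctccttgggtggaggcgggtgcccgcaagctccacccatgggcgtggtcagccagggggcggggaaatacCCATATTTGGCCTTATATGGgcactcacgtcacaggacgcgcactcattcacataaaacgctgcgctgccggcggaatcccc
Dusp6, chr10:99262981-99263230, plus strand: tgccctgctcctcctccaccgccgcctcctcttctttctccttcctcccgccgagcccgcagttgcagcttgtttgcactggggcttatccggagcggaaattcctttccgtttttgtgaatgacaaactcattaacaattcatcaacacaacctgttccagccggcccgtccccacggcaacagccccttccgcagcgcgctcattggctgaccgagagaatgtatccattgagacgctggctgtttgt
Dusp10, chr1:184034131-184034380, plus strand: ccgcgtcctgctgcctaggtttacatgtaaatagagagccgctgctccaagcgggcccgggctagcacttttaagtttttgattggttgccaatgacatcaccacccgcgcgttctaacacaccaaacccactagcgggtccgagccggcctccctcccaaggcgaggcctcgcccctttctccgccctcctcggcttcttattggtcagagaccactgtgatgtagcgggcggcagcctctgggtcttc

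Motifs were searched by their letters on both strands in the whole windows, and their share was taken over 32851 such windows of all genes. Dusp1 held a CRE whose first base is at position −143 from the start (1.79% of all windows held one) and an E-box at −126 (7.15%). Dusp2 held an E-box at −109, and Dusp5 held 2 CArG boxes side by side, at −82 and −72 (1.63% of all windows held at least 1). The shorter core of the CRE (TGACG) was in the windows of 4 of the 7 genes (Dusp1, Dusp2, Dusp5 and Dusp16), against 20.8% of all windows. The windows of the 7 genes were 57.3% (Dusp6) to 78.7% (Dusp7) G or C, against a median of 52.7% over all windows. The shares over all windows were not matched for this. A GAS element (TTCNNNGAA, 8.3% of all windows), the form bound by STAT factors, an ETS site (CCGGAA, 14.9%) and an AP-1 site (TGANTCA, 7.81%) were in none of the 7. The windows of Dusp6, Dusp7 and Dusp10 held none of the motifs searched. These are matches of letters in a short window, and RefSeq places the starts of Dusp1 and Dusp10 at 53656 and 21079 bases inside the gene as GENCODE M21 draws it, which counts a more distant first exon.

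By that annotation (GRCm38), the genes lie on 8 different chromosomes. Dusp1 is at chr17:26505590-26562128 on the minus strand, Dusp6 at chr10:99263231-99267489 on the plus strand, and Dusp10 at chr1:184013302-184075636 on the plus strand. Dusp5, at chr19:53529109-53542431 on the plus strand, shares 547 of its 2473 exonic bases with an antisense gene (AC137853.2), so its level may include reads of that gene. All values are of whole genes, with no split by transcript.

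The tether 3A10t was compared with EV no IL-2 to ask what the tethered weak agonist does without soluble IL-2. Limma called none of the 8 phosphatases, against 2.05% of all genes tested. The count behind that share, 308 genes, rested on single libraries. Leaving out 3A10t replicate 1 gave 3469, and leaving out any other of the 6 gave 25 to 82. An unadjusted limma p under 0.05 was found for 2 of the 8 (Dusp6 and Dusp7), against 3911 of all 15043 genes tested. Dusp6 was at 47.7, 38.8 and 43.0 scaled TPM in 3A10t, which was above all EV no IL-2 libraries and below all EV+IL-2 libraries. Its mean was 1.73-fold that of EV no IL-2, with a log2 fold change of 0.76 (SE 0.23), an unadjusted p of 0.0079 and a limma adjusted p of 0.098. In the 16 alternatives that adjusted p ran from 0.041 to 0.23, and it was under 0.05 in 1 of them, the fit without 1G12t replicate 3, a library that belongs to neither group but enters the estimate of the spread. At the threshold in the study's methods, which asks for an unadjusted p below 0.01 and a log2 difference beyond 0.25, Dusp6 passed with the limma p. The study applied that threshold to DESeq2 results, which were not used here.

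Dusp1 was at 205, 216 and 239 scaled TPM in 3A10t, also between EV no IL-2 and EV+IL-2 without overlap. It differed from EV no IL-2 by 0.35 on the log2 scale, with a 95% interval from −0.32 to 1.02. The 1G12t libraries, in which Dusp1 spread most, enter that interval. Dusp7, an ERK phosphatase of the cytoplasm, was at 8.18, 5.49 and 7.40 in 3A10t and at 11.6, 9.16 and 9.22 in EV no IL-2, with no overlap and a log2 fold change of −0.46 (SE 0.19, limma adjusted p of 0.16). Groups without overlap were thus seen for 3 of the 8 genes, against 25.4% of all genes tested. Dusp10 was at 28.8, 21.9 and 23.9 in 3A10t, overlapping EV no IL-2. Over the 8 genes the log2 fold change had a median of −0.11, against 0.026 over all genes tested.

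The libraries of 3A10t were then set against EV+IL-2 directly. Dusp1, Dusp5 and Dusp6 were lower in 3A10t and Dusp10 was higher, 4 of the 8 genes, against 23.4% of all genes tested. Dusp6 was lower by a factor of 2.73 (log2 fold change −1.43, SE 0.23, limma adjusted p of 0.0020) and Dusp1 by a factor of 2.30 (−1.19, SE 0.30, limma adjusted p of 0.017). The call of Dusp1 was lost when EV+IL-2 replicate 1, EV+IL-2 replicate 2 or 3A10t replicate 2 was left out, with adjusted p from 0.053 to 0.064. Dusp5 was at 33.7, 20.0 and 33.6 scaled TPM in 3A10t, all below EV+IL-2, lower by a factor of 1.77 (log2 fold change −0.83, SE 0.19, limma adjusted p of 0.011, and 0.071 with only the 6 libraries compared). Dusp10 in 3A10t was at 1.66 times its EV+IL-2 level (log2 fold change 0.68, SE 0.15, limma adjusted p of 0.010). The same 4 genes were those without overlap, against 36.9% of all genes tested. This comparison and the one with EV no IL-2 share the 3A10t libraries, and the 3 genes called in EV+IL-2 against EV no IL-2 share the EV+IL-2 libraries with it.

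The tether 1G12t was compared with EV no IL-2 in the same way. Limma called none of the 8 phosphatases, against 0.0199% of all genes tested (3 genes). None had an unadjusted limma p under 0.05, against 1059 of all 15043 genes tested. None had groups without overlap, against 16.5% of all genes tested. The spread within 1G12t was the largest of any group for Dusp1, Dusp6 and Dusp10, with replicate 3 farthest from the group mean. Replicate 2 lay on the other side for Dusp1 and Dusp6. The log2 deviations of replicates 3 and 2 from the mean were 0.91 and −0.65 for Dusp1 and 0.65 and −0.58 for Dusp6. The median log2 fold change over the 8 genes was 0.10, against −0.0038 over all genes tested. Dusp1 was at 193, 148 and 439 scaled TPM in 1G12t replicates 1, 2 and 3. Dusp6 was at 33.5, 23.3 and 56.0, and Dusp10 at 24.3, 26.3 and 16.4. Replicates 1 and 2 lay near EV no IL-2, and replicate 3 lay towards EV+IL-2 for all 3 genes, with Dusp1 as high as in EV+IL-2 replicate 3. Without replicate 3 the log2 fold change of Dusp1 in 1G12t against EV no IL-2 went from 0.43 to −0.024, that of Dusp6 from 0.49 to 0.16 and that of Dusp10 from −0.25 to −0.049.

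Replicate 3 of 1G12t was therefore placed between EV no IL-2 and EV+IL-2, gene by gene and over all genes. On the log2 scale, as a share of the way from the mean of EV no IL-2 to that of EV+IL-2, the library was at 87.1% for Dusp1, 51.9% for Dusp6 and 83.8% for Dusp10. Over the 1998 other genes called between those groups, the least-squares place of the same library was −0.31%, against 5.55% and 1.06% for 1G12t replicates 1 and 2 and between 9.44% and 13.2% for the 3A10t libraries. Single genes scatter around such a place, and the difference between the 3 phosphatases and the 1998 genes was not tested. In the 3A10t libraries Dusp6 was at 28.2% to 41.4% and Dusp1 at 16.4% to 30.5% on the same scale, whereas Dusp10 was at −16.9%, 32.7% and 16.5% in replicates 1, 2 and 3.

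Immediate early genes encode transcription factors and RNA-binding proteins induced within minutes of a stimulus, and 6 of the 10 on the list had their highest level in the same library. The share of all genes tested that were highest there is not given here, so whether 6 of 10 is unusual is not known. Fos was at 396 scaled TPM in 1G12t replicate 3, against 13.8 to 102 in the other 11 libraries. Fosb was at 11.9, against at most 1.24 elsewhere, Jun at 182, against at most 93.1, and Egr1 at 20.9, against at most 12.2. Nr4a1, an orphan nuclear receptor induced by T cell receptor signals, was at 40.6, against at most 22.2. Zfp36 was at 282, against at most 269. The other 4 were not highest there. Junb was at 435 (up to 535 elsewhere), Ier2 at 284 (up to 354), Btg2 at 292, below the 293 to 327 of EV no IL-2, and Atf3 at 0.979 (up to 1.12). The 10 immediate early genes summed to 1947 scaled TPM in this library and to between 1091 and 1561 in the others. Spry1, an inhibitor of Ras signals, was also highest there (12.5, against at most 5.51), while Myc was lowest (188, against 270 to 566). Of the phosphatases, Dusp4 also had its highest level in this library (16.7) and Dusp2 was at 192, close to its highest. The share of mitochondrial transcripts was lowest there (5.33%, against 5.80% to 7.31%). The part of these genes in the values of Dusp1, Dusp6 and Dusp10 was not tested.

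**Figure D3:**
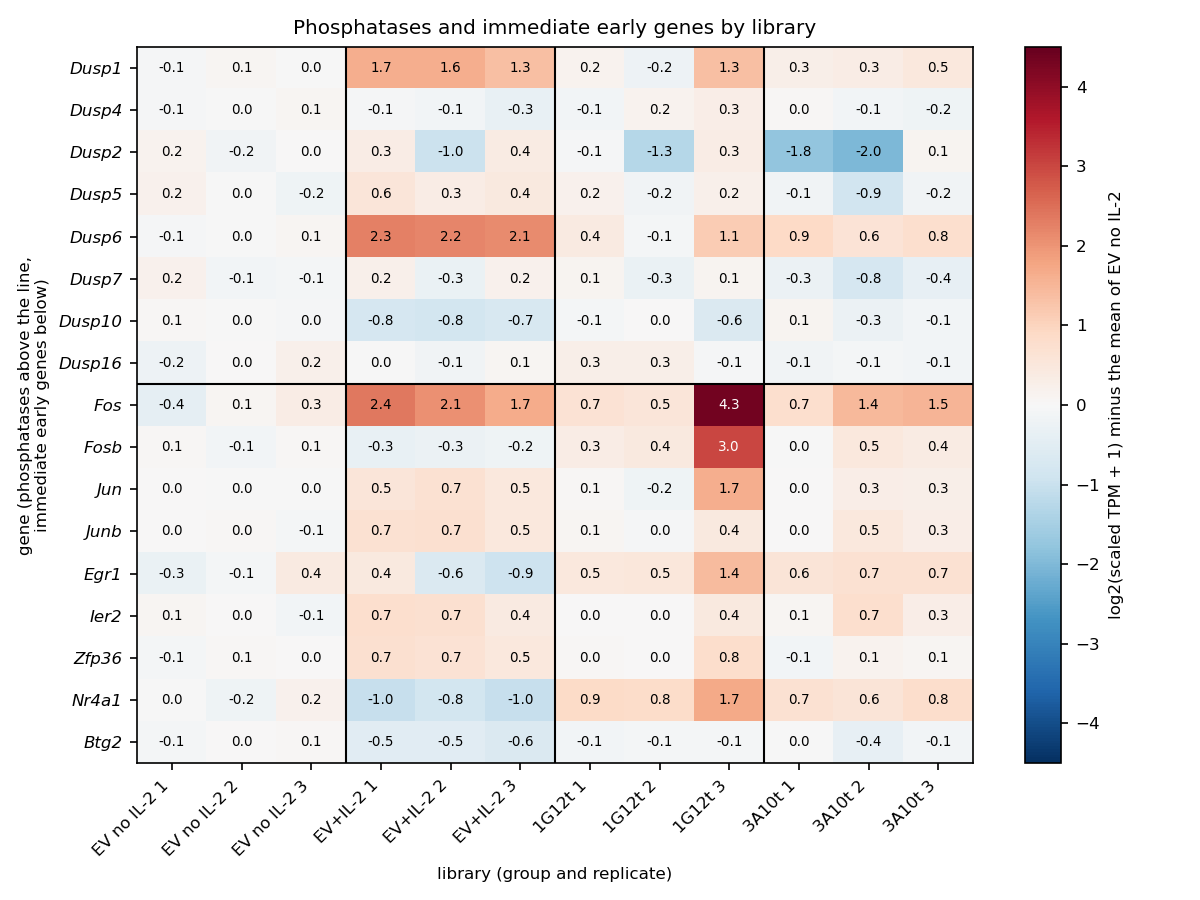
Difference of log2(scaled TPM + 1) from the mean of EV no IL-2, for each library (columns) and for the 8 phosphatases and the 9 immediate early genes that were tested (rows), red for higher and blue for lower. In 1G12t replicate 3 Dusp1 and Dusp6 were high together with Fos, Fosb, Jun, Egr1 and Nr4a1, but Btg2 was not. In EV+IL-2 they were high with Fos, Jun, Junb, Ier2 and Zfp36 above EV no IL-2 and Nr4a1 and Btg2 below it.

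Against EV+IL-2, 1G12t Tregs had lower Dusp1 and Dusp6 and higher Dusp10, 3 of the 8 genes, against 20.6% of all genes tested. Dusp6 was lower by a factor of 3.13 (log2 fold change −1.71, SE 0.23, limma adjusted p of 0.00069), and all 3 of its 1G12t libraries were below all EV+IL-2 libraries. Dusp1 had a log2 fold change of −1.11 (SE 0.30, limma adjusted p of 0.025) with overlapping groups, and Dusp10 one of 0.52 (SE 0.15, limma adjusted p of 0.036). Both of the latter calls were lost in 6 of 15 alternatives, with adjusted p up to 0.12 for Dusp1 and 0.13 for Dusp10, and both were kept without 1G12t replicate 3. Without that library the log2 fold changes were −1.57 for Dusp1 and 0.72 for Dusp10. Groups without overlap were found for 3 of the 8 genes (Dusp5 and Dusp6 below, Dusp10 above), against 43.2% of all genes tested.

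The tethers were also compared with each other. Limma called none of the 8 genes between 3A10t and 1G12t, against 4.27% of all genes tested. The count behind that share was 642, and leaving out 3A10t replicate 1 gave 4105, whereas any other of the 6 left out gave 39 to 111. An unadjusted limma p under 0.05 was found for 2 of the 8 (Dusp5 and Dusp7), against 4470 of all 15043 genes tested. Groups did not overlap for 1 of the 8, against 26.2% of all genes tested. That gene was Dusp16, a phosphatase of p38 and JNK, with 1.43 to 1.55 scaled TPM in 3A10t and 1.59 to 2.23 in 1G12t, at a log2 fold change of −0.28 (SE 0.17, limma adjusted p of 0.29). The Dusp6 difference was 0.28 on the log2 scale, with a 95% interval from −0.24 to 0.79, so the test does not separate the tethers for this gene. Without 1G12t replicate 3 the difference was 0.60, with a limma adjusted p of 0.11, and without 1G12t replicate 2 it was −0.011.

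A further pattern ran with the replicate number. Dusp2, a nuclear phosphatase of activated T cells, and Dusp7 were lowest in replicate 2 in all 4 groups, as were 442 (2.94%) of all genes tested. Dusp2 was at 170, 136 and 154 scaled TPM in EV no IL-2 (replicates 1, 2 and 3) and at 195, 77.4 and 196 in EV+IL-2. In 1G12t it was at 147, 62.6 and 192. In 3A10t it was at 44.1, 37.0 and 168, so that replicate 1 was low as well and replicate 3 stood apart. The highest 3A10t library was 4.55 times the lowest, the widest ratio within a group for any of the 8 genes. The log2 fold change of Dusp2 in 3A10t was −1.22 (SE 0.58) against EV no IL-2 and −1.13 (SE 0.58) against EV+IL-2, with limma adjusted p of 0.21 and 0.19. Without 3A10t replicate 3 the latter was −1.80, with an adjusted p of 0.035, and over its 16 alternatives that p ran from 0.035 to 0.48.

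Dusp7 was at 11.9, 7.88 and 11.5 scaled TPM in EV+IL-2 and at 10.97, 7.97 and 10.9 in 1G12t. Within each replicate number its 3A10t library was below the libraries of the other groups. With the replicate number as a block in limma, Dusp7 was lower in the 3A10t libraries than in those of 1G12t (log2 difference −0.45, adjusted p of 0.040, against 0.14 without the block) and of EV+IL-2 (−0.51, adjusted p of 0.0085, against 0.073 without the block). Against EV no IL-2 the blocked adjusted p of 0.05002 did not pass. Dusp5 followed the same numbers in 3 of the 4 groups, with its lowest value in replicate 2 except in EV no IL-2. The sort on separate machines cannot be told apart from other differences between these parts of the pool.

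**Figure D4:**
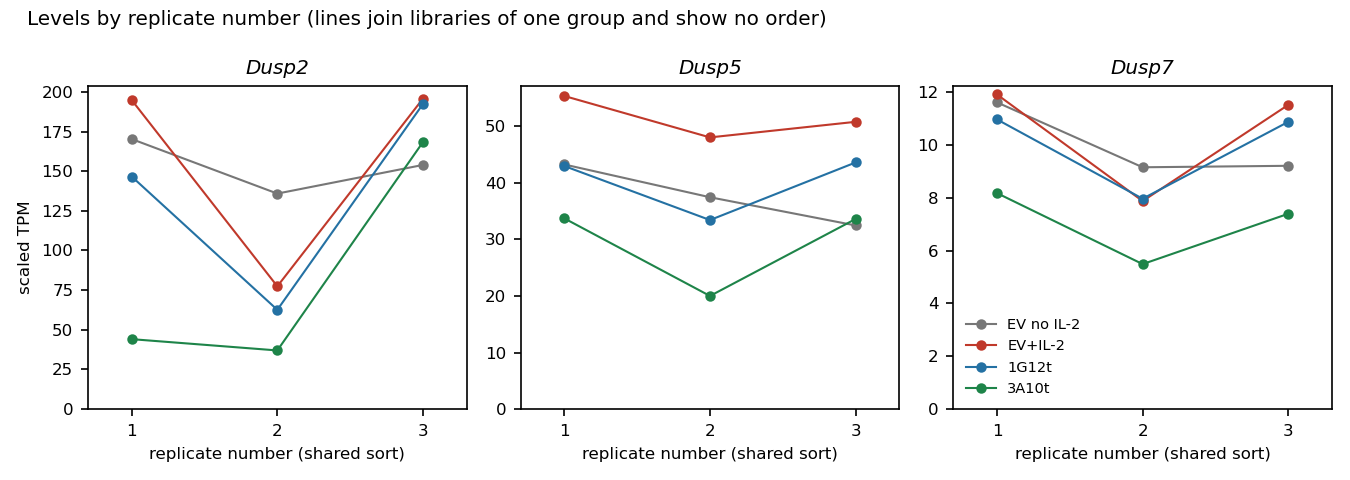
Scaled TPM of Dusp2, Dusp5 and Dusp7 against the replicate number, which marks a shared sort, with 1 line per group. Lines join the libraries of a group only to guide the eye. Replicate 2 was lowest in all 4 groups for Dusp2 and Dusp7, and the 3A10t line of Dusp7 lies below the others at each number.

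The members were compared with each other by the root mean square difference of their centred log2 profiles over the 12 libraries. The pairs most alike were Dusp5 and Dusp7 (0.20), Dusp4 and Dusp16 (0.21) and Dusp1 and Dusp6 (0.30), and the least alike was Dusp6 and Dusp10 (1.17). The nearest profiles among the 10041 other genes that averaged 5 TPM or more were found for the 3 genes called with soluble IL-2. For Dusp1 they were Il1rl1, the IL-33 receptor (difference 0.18), Cd69, an early activation marker (0.21), and Tnfsf4, the OX40 ligand (0.22). For Dusp6 they were Serpina3g (0.16), Cdkn1a, a cyclin-dependent kinase inhibitor (0.23), and Paqr4 (0.23). For Dusp10 they were Tgif1 (0.13), Atp1b3 (0.14) and Tk2 (0.14). All 9 genes followed the direction of their phosphatase in EV+IL-2, which a near profile implies. Differences are small also where a profile is nearly flat, as the SD of Dusp10 itself was 0.34.

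Other genes of the pathway were counted from lists chosen by name. Of 16 further phosphatases of MAP kinases and atypical dual-specificity phosphatases, 10 were tested, and in EV+IL-2 against EV no IL-2, Dusp3 and Dusp22 were higher and Dusp14 was lower. The log2 fold changes were 0.75, 0.62 and −0.72. Over all genes tested, limma called 13.3% in this comparison. Limma called none of the 10 in 3A10t or 1G12t against EV no IL-2, against 2.05% and 0.0199% of all genes tested. An unadjusted limma p under 0.05 was found for 1 of the 10 in each. Over all 15043 genes tested, 3911 in 3A10t and 1059 in 1G12t had such a p. Ptpn7, the hematopoietic tyrosine phosphatase of ERK and p38, was more abundant than most of the DUSP genes, at 177 ± 10.6 scaled TPM (SD, n = 3) in EV Tregs without IL-2 and 204 ± 10.3 with it, and it was not called. Dusp8 and Dusp9, further members of the same family, had at most 0.54 and 0.46 scaled TPM and were not tested.

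The kinases that these phosphatases act on were counted in the same way. Of the 11 genes from Ras to ERK, limma called none in EV+IL-2, 3A10t or 1G12t against EV no IL-2. Over all genes tested, the shares called in these comparisons were 13.3%, 2.05% and 0.0199%. At an unadjusted limma p under 0.05 there were 1, 1 and 0, against 3951, 3911 and 1059 of all 15043 genes tested. Of 10 tested adaptors and exchange factors to Ras, Gab2, a docking protein of cytokine receptors, was higher in EV+IL-2 (0.645 to 3.31 scaled TPM, log2 fold change 1.39). Rasgrp1, an exchange factor for Ras, had a log2 fold change of 0.49, with a limma adjusted p of 0.082 and of 0.033 with the replicate block. Of 11 tested p38 and JNK kinases, Mapkapk3 was higher in EV+IL-2 (log2 fold change 0.44) and Map2k6, which activates p38, and Mapk12, a p38 isoform, were lower (−0.75 and −0.51). The median log2 fold changes with soluble IL-2 were −0.15 over the 10 further phosphatases, 0.052 from Ras to ERK, 0.046 over the adaptors and −0.11 over the p38 and JNK kinases. In 3A10t against EV no IL-2, Mapk9, which encodes JNK2, was lower (−0.41, limma adjusted p of 0.045).

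Genes known as ERK feedback regulators or targets did not move as 1 group. Of 9 tested, Spred2, an inhibitor of Ras signals, and Myc were higher in EV+IL-2 than in EV no IL-2 (log2 fold change 0.69 and 0.79), and Egr2, an early growth response factor, was lower (−1.61). The median over the 9 was 0.24, against −0.014 over all genes tested. Over all genes tested, limma called 13.3% in this comparison. Of the 9 tested immediate early genes, 3 were higher in EV+IL-2, Ier2, Zfp36 and Junb (each 0.62), and Nr4a1 and Btg2 were lower (−0.96 and −0.56), with a median over the 9 of 0.57. Fos (mean scaled TPM 19.2 to 81.8) and Jun (57.4 to 85.8) also rose without overlap but were not called. Both were highest in 1G12t replicate 3, a library that enters the estimate of the spread. Without overlap, 5 of the 9 stood above and 3 below, against 39.6% of all genes tested. With the replicate block Junb stayed higher, while Ier2 and Zfp36 had limma adjusted p of 0.056 and 0.059. Limma called no gene of either list in 3A10t or 1G12t against EV no IL-2, against 2.05% and 0.0199% of all genes tested. An unadjusted limma p under 0.05 was found for 1 gene of each list in 3A10t and 4 of each in 1G12t. Over all 15043 genes tested, such a p was found for 3911 and 1059. Fos, Egr1 and Nr4a1 were above EV no IL-2 in all 3 libraries of both tethers. Of the 9 immediate early genes, 3 in 3A10t and 4 in 1G12t stood above EV no IL-2 without overlap. Groups without overlap made up 25.4% and 16.5% of all genes tested.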

How the data were processed

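RNA-seq of 12 libraries of sorted Thy1.1+ Tregs was used, with groups and replicate numbers from the labels. Full-length cDNA was made with an oligo-dT primer and fragmented with a transposase. The authors trimmed reads with cutadapt 1.18, aligned them to mm10 with STAR 2.5.3, estimated gene expression with RSEM 1.3.0 and a GENCODE annotation, and deposited TPM, 1 column per library. The authors tested counts with DESeq2 1.26, and those counts were not used here.

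Genes whose TPM averaged at least 1 over the 12 libraries were kept (15043), and TPM were divided by median-of-ratios factors taken over them. The genes were tested with limma 3.58.1 (R 4.3.3, lmFit and eBayes with a trend, two-sided) on log2(scaled TPM + 1), with 12 libraries in 1 fit, 1 mean per group and no block. P-values were adjusted by Benjamini-Hochberg over all genes tested, separately in 6 comparisons. The code was tested on simulated data. Positions are from GENCODE M21, in which 53569 of the 55228 symbols were found, and promoter windows from RefSeq. Python 3.11.15, pandas 2.3.3 and matplotlib 3.10.9 were used.

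The 8 genes were named in every comparison. Genes of other lists were named where they had the 2 largest or the 2 smallest log2 fold changes among those called, or as background of a result. The members and lists were chosen with earlier results of these data known. Fos, Fosb, Jun, Egr1, Atf3, Spry1, Rasgrp1, Ptpn7 and Ergic1 were named after their values were seen. The level of 1 gene of the kinase list is not reported here.

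Replicate numbers mark a shared sort by the labels. Deviations from the group means correlated at 0.041 on average over 18 pairs of libraries with the same number (−0.11 to 0.15), and at −0.020 over pairs with different numbers. Values with the block stand beside a printed result of a named gene where they changed its call.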

Additional observations from a re-analysis of the deposited data

How the results depend on the processing

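The settings tried were TPM as deposited or quantile-normalized, a pseudocount of 0.1 or 5, no filter or one at an average TPM of 5, the replicate block, eBayes without a trend, a fit of the 6 libraries compared alone, the threshold in the study's methods, and a fit without each library in turn. The fit without 1G12t replicate 3, in comparisons without 1G12t, was chosen after seeing the data. The calls of Dusp1, Dusp6 and Dusp10 in EV+IL-2 against EV no IL-2 held in all 16 alternatives with a p. Depth is unknown, so counting error at low levels, such as those of Dusp16, is not known.

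The number of phosphatases called changed as follows. In 3A10t against EV no IL-2 it was 1 at the study's threshold, taken with the limma p, and it ranged from 0 to 1 with libraries left out. The share of all genes at that threshold is not given here. In 3A10t against 1G12t it was 1 with the replicate block. In 1G12t against EV+IL-2 it was 1 with only the 6 libraries compared and ranged from 1 to 3 with libraries left out, being 1 without EV+IL-2 replicate 1, EV+IL-2 replicate 2 or 1G12t replicate 2. In 3A10t against EV+IL-2 it was 5 with the replicate block, without 3A10t replicate 1 or without 3A10t replicate 3, and it fell to 3 without EV+IL-2 replicate 1, without 3A10t replicate 2 or in the fit of the 6 libraries alone. In that comparison Dusp7 was called in 3 of 16 alternatives and Dusp2 in 1, and the call of Dusp1 was lost in 3 and that of Dusp5 in 1. Dusp4 was called in 1G12t against EV+IL-2 without 1G12t replicate 1 (adjusted p of 0.037, and up to 0.35 in the other alternatives). Apart from the calls of Dusp7 given above, the replicate block changed no call of the 8 genes. The cause of these changes was not tested.

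Uncalled log2 fold changes turned sign in some alternatives. With TPM as deposited, Dusp7 was at −0.012 in EV+IL-2 and 0.027 in 1G12t against EV no IL-2 and at 0.039 in 1G12t against EV+IL-2, Dusp10 was at −0.020 in 3A10t against 1G12t, and Dusp4 at −0.0086 in 3A10t against EV+IL-2. With quantile normalization, Dusp7 was at −0.0062 and Dusp16 at 0.032 in EV+IL-2, Dusp4 at 0.015 and Dusp10 at 0.034 in 3A10t, and Dusp16 at −0.039 in 1G12t, all against EV no IL-2, and Dusp16 was at −0.071 in 1G12t against EV+IL-2. With libraries left out, the log2 fold changes in EV+IL-2 against EV no IL-2 ranged from −0.31 to 0.35 for Dusp2, from −0.053 to 0.22 for Dusp7 and from −0.14 to 0.085 for Dusp16. In 3A10t against EV no IL-2, Dusp10 ranged from −0.19 to 0.0013. In 1G12t against EV no IL-2, Dusp1 ranged from −0.024 to 0.76, Dusp2 from −0.67 to 0.14, Dusp5 from −0.019 to 0.20 and Dusp7 from −0.084 to 0.12. In 3A10t against 1G12t, Dusp1 ranged from −0.41 to 0.37, Dusp6 from −0.011 to 0.60 and Dusp10 from −0.034 to 0.29. In 3A10t against EV+IL-2, Dusp4 ranged from −0.0098 to 0.13, and in 1G12t against EV+IL-2, Dusp2 ranged from −0.69 to 0.22 and Dusp7 from −0.23 to 0.080.

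Counts over all genes moved more than those of the phosphatases. With no filter on low TPM they were 15544 in 3A10t and 14671 in 1G12t against EV+IL-2, and with only the 6 libraries compared 3209 in EV+IL-2 and 4 in 3A10t against EV no IL-2 and 13 between the tethers. With libraries left out they ranged from 1243 to 2186 in EV+IL-2, from 25 to 3469 in 3A10t and from 4 to 14 in 1G12t against EV no IL-2.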
